A study of Rattus norvegicus with 6 samples.

Results

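The cytosolic ribosomal protein genes encode the protein parts of the ribosome that translates nuclear mRNAs. They were taken here by gene name: all names starting with Rpl or Rps and a digit, the stalk genes Rplp0 to Rplp2 and Rpsa, without the Rps6k kinases. This gave 111 of the 14405 listed protein-coding genes, under 101 names, with 70 rows of the large and 41 of the small subunit. RNA-seq of rat dorsal tongue epithelium, described by the series as tissue of the circumvallate papilla, was compared between 3 control libraries (non-periodontitis rats) and 3 libraries of rats with chronic periodontitis, in which inflammation destroys the tissue that holds the teeth. The sources used here do not give strain, age, sex or the way the disease was produced. Nor do the labels say whether each library came from a separate animal. The p-values set the group difference only against the spread between these libraries within a group, which may be technical. Basal keratinocyte, cornified epithelium and taste cell marker lists each had no row listed at 0 in any library. The same held for the gland, fibroblast, immune cell and endothelium lists, so it does not show which cell types prevailed. The libraries summed to between 611713 and 660619 FPKM, with 71 to 218 genes listed at 0.

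A ribosome has a large subunit, which joins amino acids, and a small subunit, which reads the mRNA. Each holds ribosomal RNA and many small, mostly basic proteins, nearly all present as a single copy per ribosome. Most of their mRNAs begin with a cytosine followed by a run of pyrimidines, the terminal oligopyrimidine (TOP) start, through which growth signals control their translation together. In a renewing epithelium such as that of the tongue, ribosomal proteins are made in large amounts, and their genes have left many intronless copies across mammalian genomes.

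The annotated starts of the members are shown first because the TOP start is a known feature of this class of mRNAs that the name rule did not use. Of the 101 names, 71 were found in the RefSeq promoter table (build GRCr8), with 72 annotated starts. The first transcribed base was C, followed by 4 bases that are each C or T on the transcribed strand, in 23 of these 72 starts (31.9%). The same was true of 881 of 33469 starts in the whole table (2.63%) and of 2 of 61 starts of mitochondrial ribosomal protein genes (3.28%). All 23 belonged to the core names, those of the ribosome's standard parts, with 0 among 11 starts of the other names (copies, paralogs and Rps19bp1). When the TOP start could lie up to 5 bases to either side, it was found in 40 of 72 starts (55.6%), against 17.0% in the whole table. The windows below run from 15 bases before the start to 15 after it, 5′ to 3′ on the gene's strand, with the first 5 transcribed bases in capitals. They are the ribosomal stalk and 3 pairs of a core gene and its paralog, in which TOP starts and other starts stand side by side.
Rplp0 (chr12:46718376-46718405, minus strand): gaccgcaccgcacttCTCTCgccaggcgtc
Rplp1 (chr8:71290858-71290887, minus strand): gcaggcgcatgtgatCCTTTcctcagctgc
Rplp2 (chr1:205975906-205975935, plus strand): cctttcgccgccggaCGCCGccgaggtcgc
Rpl22 (chr5:168117946-168117975, plus strand): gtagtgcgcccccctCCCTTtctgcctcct
Rpl22l1 (chr2:113683181-113683210, plus strand): gctccgtggatatccGGTTCcgagttgcgc
Rps27 (chr2:177964592-177964621, minus strand): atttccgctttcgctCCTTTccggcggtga
Rps27l (chr8:76443643-76443672, plus strand): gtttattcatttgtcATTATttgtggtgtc
Rpl3 (chr7:113507976-113508005, minus strand): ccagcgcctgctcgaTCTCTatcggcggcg
Rpl3l (chr10:14258431-14258460, plus strand): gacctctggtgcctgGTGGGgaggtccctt
Rplp0, Rplp1, Rpl22 and Rps27 had a TOP start, whereas the 3 paralogs Rpl22l1, Rps27l and Rpl3l, as well as Rplp2 and Rpl3, did not at the annotated base. A match describes only the letters at an annotated start, which may be off by some bases.

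Expression is given as FPKM, fragments per kilobase of transcript relative to all mapped fragments of the library, which allows levels of different genes to be compared per length. Ribosomal protein genes were among the most abundant mRNAs of the tissue: 40 of the 100 genes with the highest control mean were members. A core name had a row for 75 of 77 standard proteins (Rps13 and Rps26 were not analysed here), and the control means of these 75 rows had a median of 615 FPKM, with quartiles of 350 and 842 FPKM. The highest was Rpl41, which encodes the smallest ribosomal protein (1603, 1774 and 2319 FPKM in controls 1 to 3). It was followed by Rplp1, an acidic stalk protein that helps to recruit elongation factors (1355, 1458 and 1402 FPKM). Rps27a, which is made as a fusion with ubiquitin, had 1178, 1268 and 1579 FPKM in its row on chromosome 14. Rps29, a small zinc-binding protein, had 1152, 1196 and 1559 FPKM, and Rpl35 of the large subunit had 1295, 1386 and 1084 FPKM. Among these 5 genes control 3 was the highest control for Rpl41, Rps27a and Rps29, and the lowest for Rpl35.

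Levels differed with how the locus is drawn in the annotation. The 25 rows of copies or paralogs had a median control mean of 39.3 FPKM, and the 10 further rows of core names had 132 FPKM. The core row of a name was taken as its row with the highest mean FPKM, so further rows are lower by definition. Among them was a long row of Rps6, with 2292 bases and a control mean of 646 FPKM. A very short locus leaves little room for the introns that ribosomal protein genes have. The 34 rows that span under 1000 bases had a median of 66.3 FPKM, against 615 FPKM in the 77 longer rows. Of the 75 core rows, 8 were that short: Rpl30, Rpl35a, Rpl36, Rpl37, Rpl38, Rpl8, Rps20 and Rps21. Their median was 252 FPKM, compared with 676 FPKM in the other core rows. No short core row lay near 252 FPKM. Rpl38, Rpl8, Rpl35a and Rpl37 had control means of 37.8 to 110 FPKM. Rpl30, Rps21, Rps20 and Rpl36 had 395 to 532 FPKM, above the lower quartile of all core rows (350 FPKM). Rpl38, the lowest core row, was listed at a locus of 303 bases on chromosome 2 and had 39.2, 48.2 and 26.0 FPKM in controls. Fragments of near-identical copies can be divided between rows by the authors' assembly, so the levels of such rows are uncertain. The lowest members were Rps15-ps2 (0.353, 1.14 and 0 FPKM in controls, where 0 is as listed), Rpl30l1 (0.617, 0.805 and 0.381 FPKM), Rpl22l2 (0.751, 2.08 and 1.33 FPKM), Rpl26-ps1 (2.42, 2.62 and 2.61 FPKM) and Rps15al2 (3.12, 2.92 and 1.74 FPKM). They are named as pseudogenes or copies, and the first 2 of them were the only members under the filter of 1 FPKM in 3 libraries.

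Among controls the core rows were steady. The median coefficient of variation over the 3 controls was 11.0%, compared with 13.0% over the 682 tested genes with a control mean of 100 FPKM or more, a group that includes 84 members. It ran from 2.49% for Rpl4 to 45.3% for Rpl17, both genes of the large subunit chosen as the extremes after their values were seen. Rpl17 had 1008, 666 and 387 FPKM in controls 1 to 3, and 1322, 1109 and 699 FPKM in periodontitis 1 to 3. The groups overlapped for Rpl17.

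The first question was whether the family as a whole differed with periodontitis. Of each library's summed FPKM it held 7.77%, 8.21% and 7.83% in the 3 controls. The 3 periodontitis libraries had 9.72%, 8.47% and 6.33%. Periodontitis 1 was thus above all controls, periodontitis 3 below all controls, and the group means were 7.94% ± 0.241 and 8.17% ± 1.72 (SD, n = 3). The large and the small subunit moved together: relative to the control mean, the median log2 level of their tested rows was 0.24 and 0.24 in periodontitis 1, 0.02 and 0.02 in periodontitis 2, and -0.43 and -0.35 in periodontitis 3. The ratio of summed large to summed small subunit FPKM was 1.44, 1.44 and 1.30 in controls and 1.498, 1.45 and 1.30 in periodontitis. Control 3 and periodontitis 3 had the lowest ratios, and the group means differed by 0.0218, less than the SD of either group (0.0770 and 0.104).

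**Figure D1:**
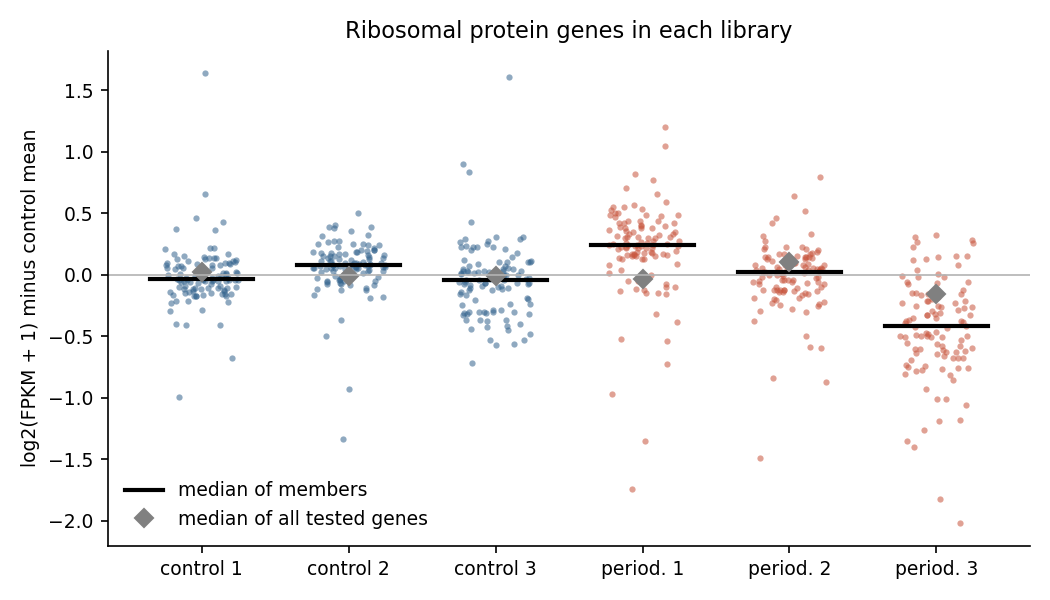
Each point is 1 of the 109 tested ribosomal protein rows, as log2(FPKM + 1) minus its control mean, in controls (blue) and in libraries of rats with periodontitis (red, period. 1 to 3). Black bars are the medians of the members and grey diamonds those of all tested genes. The members' median was 0.24 in periodontitis 1 and -0.42 in periodontitis 3, where that of all genes was -0.04 and -0.15.

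This opposite position of the libraries held for most members. Of the 109 tested members, 78 had their highest value in periodontitis 1 (71.6%), compared with 27.8% of all tested genes. The lowest value was in periodontitis 3 for 81 members (74.3%), compared with 39.4% of all genes. Both held for 70 members (64.2%), against 20.8% of all genes. These counts are on the FPKM scale as deposited and were lower under the rescaling without gland genes given below. Rplp0, the stalk base protein often used as a reference gene in PCR, is an example: it had 987, 982 and 849 FPKM in controls and 1314, 1095 and 702 FPKM in periodontitis. Its values in periodontitis spanned the whole control range and more on each side. Rpsa, a small subunit protein also known as the laminin receptor, had 787, 835 and 808 FPKM in controls and 971, 935 and 767 FPKM in periodontitis.

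FPKM is a share of a library, and the secretory mRNAs of the von Ebner glands, the serous glands that open at the papilla, took very different shares of these libraries. The 4 gland genes Lipf, Lcn1, Vegp2 and Bpifb1 held 25.1%, 24.5% and 29.4% of the total in the controls, and 15.2%, 23.5% and 40.6% in the periodontitis libraries. Periodontitis 1, with the lowest gland share, had the highest ribosomal share, and periodontitis 3 the reverse. When these 4 genes were left out of the total, the ribosomal protein genes held 10.4%, 10.9% and 11.1% in controls, and 11.5%, 11.1% and 10.7% in periodontitis. The ratio of periodontitis 1 to periodontitis 3 was 1.54 with the gland genes and 1.08 without them, and the groups then had 10.8% ± 0.371 and 11.1% ± 0.405 (SD, n = 3). Rescaled in this way, the members' median was 0.07 in periodontitis 1 and -0.15 in periodontitis 3, beside -0.19 and 0.07 for all tested genes. On the deposited scale the members had 0.24 and -0.42, beside -0.04 and -0.15 for all tested genes. Rescaling multiplies all genes of a library by the same factor, so the members' distance from all genes changed little. On that scale 39 of the 109 members were highest in periodontitis 1, beside 15.4% of all genes, and 51 were lowest in periodontitis 3, beside 20.9%. Another 12 were highest in periodontitis 2, beside 23.2% of all genes, where none was on the deposited scale. In bulk tissue fewer cells of a type and less RNA per cell cannot be told apart.

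**Figure D2:**
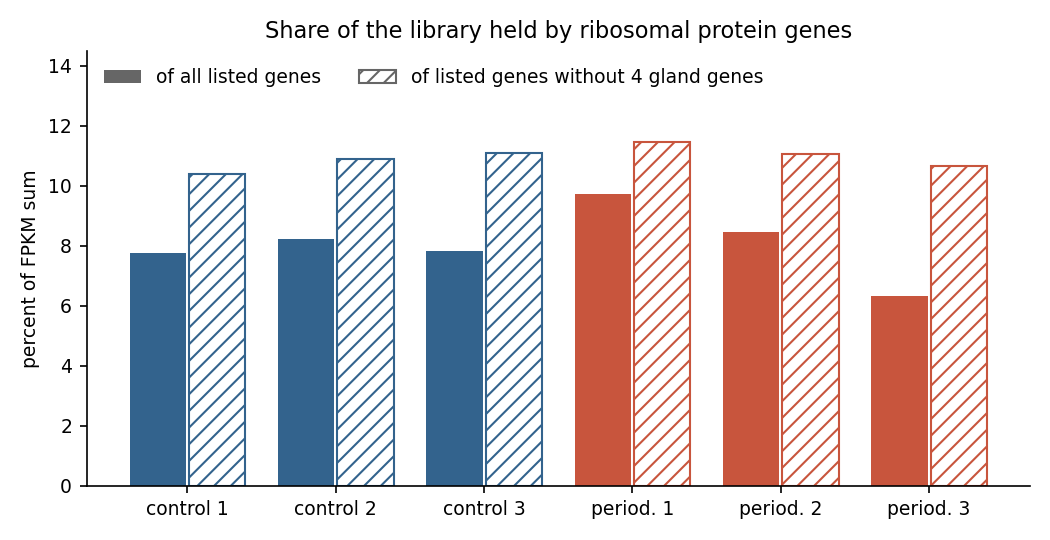
Bars give the percent of each library's FPKM sum held by the 111 ribosomal protein rows, in controls (blue) and periodontitis libraries (red). Filled bars use all listed genes and hatched bars leave 4 gland genes out of the sum. Filled bars run from 6.33% to 9.72%, and hatched bars from 10.4% to 11.5%.

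The second question was which members differed between the groups. With limma on log2(FPKM + 1), 0 of the 109 tested members passed a Benjamini-Hochberg adjusted p of 0.05 over all 13154 tested genes, of which 0% passed. At an unadjusted p under 0.05 there were 0 higher and 2 lower members, Rps4y2 and Rpl10l (of all genes 2.11% had such a p, 0.38% higher and 1.73% lower), and the smallest adjusted p of a member was 1.0. The median log2 fold change (periodontitis minus control) was -0.04, beside -0.03 for all tested genes. The middle 50% of members lay between -0.11 and 0.03, a narrower band than the -0.17 to 0.08 of all genes. Within 0.25 of 0 on the log2 scale were 93 members (85.3%) and 78.5% of all genes. The median SE of a member's log2 fold change was 0.26, so changes of that size could not be told from the spread between libraries. A lower mean was seen in 68 members (62.4%) and 57.4% of all genes. Which direction prevailed rested on the libraries: 11 members had a higher mean without periodontitis 1, 79 without periodontitis 3 and 60 without control 2, compared with 41 in all 6 libraries. Rescaling without the gland genes gave 52, and centring on the family gave 51.

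**Figure D3:**
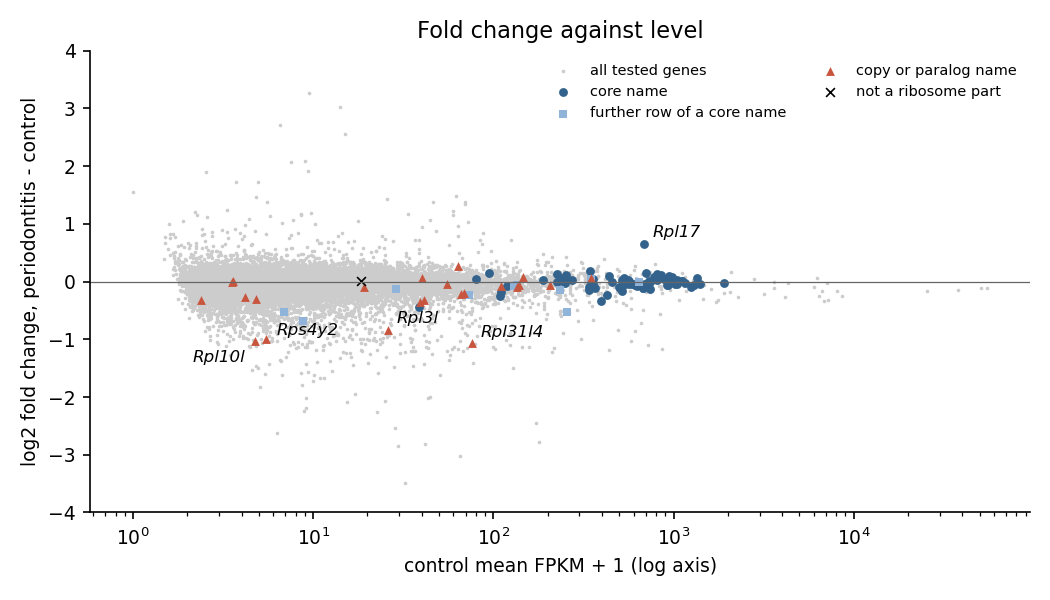
Log2 fold change (periodontitis minus control, limma) against the control mean FPKM + 1 on a log axis. Grey points are all tested genes, and larger marks are ribosomal protein rows by kind. Most core rows lie close to 0 at high levels, with Rpl17 (0.66) apart, and the lowest points are copies or paralogs such as Rps4y2 (-0.99), Rpl10l (-1.03) and Rpl31l4 (-1.07).

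Groups without overlap were seen for 5 members, all lower in periodontitis (4.59%). Of all genes 5.56% had no overlap, 3.59% lower and 1.97% higher, so the members' share was near the background. Rps4y2, named as a paralog of the small subunit gene Rps4x and listed here on chromosome 4 (182745448 to 182746381), had 4.82, 4.06 and 4.58 FPKM in controls. In periodontitis it had 1.15, 1.996 and 2.25 FPKM, so that all 3 libraries lay at less than 3 FPKM and all controls above 4 FPKM. Its log2 fold change was -0.99 ± 0.22 (SE, limma, adjusted p = 1.0). Rpl10l, a retrocopy of Rpl10 known for its role in the testis, lies on chromosome 6 (88231611 to 88232252). It had 2.49, 3.52 and 5.21 FPKM in controls and 1.36, 0.635 and 1.95 FPKM in periodontitis, with a log2 fold change of -1.03 ± 0.31 (SE, limma, adjusted p = 1.0). Its parent gene Rpl10, a late-joining protein of the large subunit, had 904, 1033 and 863 FPKM in controls and 1101, 1057 and 621 FPKM in periodontitis, where the groups overlapped. The other 3 members without overlap differed by less. Rps27l had 106, 114 and 109 FPKM in controls and 106, 101 and 104 FPKM in periodontitis, with control 1 and periodontitis 1 almost equal. A further row of Rpl32 on chromosome 6 had 67.6 to 76.4 FPKM in controls and 57.1 to 64.4 FPKM in periodontitis, and a further row of Rpl21 on chromosome 3 had 26.4 to 28.8 and 24.6 to 25.7 FPKM. These 2 rows were chosen after their values were seen. With the rescaling without gland genes, 4 members were lower without overlap (Rps4y2, Rpl10l, the Rpl32 copy and Rps21) and 1 was higher (Rpsa), beside 2.18% and 2.95% of all genes.

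Other members with the smallest p among those lower also were paralogs or copies. Rpl3l, which replaces Rpl3 in ribosomes of skeletal and heart muscle, lies on chromosome 10 (14094754 to 14105308). It had 21.9, 34.4 and 18.3 FPKM in controls and 6.48, 19.7 and 17.1 FPKM in periodontitis, with a log2 fold change of -0.83 ± 0.41 (SE, limma, adjusted p = 1.0). Periodontitis 1 stood far below the other 5 libraries, and periodontitis 2 lay within the control range. The skeletal muscle list stood lowest in the same library: all 17 tested muscle genes had a lower mean in periodontitis, with summed levels of 4653 to 6497 FPKM in controls and 1411, 3200 and 4065 FPKM in periodontitis 1 to 3. Of the muscle list, 1 row (Tnnt1) was listed at 0 in some library. The part of muscle in the Rpl3l values was not tested. Rpl31l4, a copy on chromosome 12, had 33.2, 27.7 and 166 FPKM in controls and 36.6, 29.6 and 14.47 FPKM in periodontitis, so its log2 fold change of -1.07 ± 0.67 rested on control 3. A short row of Rpl39 on chromosome X (33721935 to 33722090) had 9.88, 8.74 and 4.73 FPKM in controls and 5.48, 5.51 and 2.53 FPKM in periodontitis.

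On the higher side the smallest unadjusted p was that of Rpl17 (log2 fold change 0.66 ± 0.41, SE, limma, adjusted p = 1.0), whose library values are given above. Rps10, of the small subunit, had 320, 378 and 335 FPKM in controls and 518, 349 and 329 FPKM in periodontitis, where only periodontitis 1 lay outside the control range on the high side. Rpl13a, known also for a role in translational silencing after interferon, had 208, 217 and 248 FPKM in controls and 276, 221 and 243 FPKM in periodontitis. Rpl18 had 634, 659 and 818 FPKM in controls and 781, 687 and 863 FPKM in periodontitis. Rpl3, the large subunit protein near the peptidyl transferase centre, had 238, 255 and 259 FPKM in controls and 323, 276 and 226 FPKM in periodontitis. The log2 fold changes of these 4 genes lay between 0.12 and 0.19, and their groups overlapped.

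The stalk genes, Rps27a and Fau did not share a single pattern. Rplp1 had 1560, 1262 and 1290 FPKM in periodontitis, and Rplp2 had 219, 233 and 271 FPKM in controls and 232, 232 and 267 FPKM in periodontitis. The spread of Rplp2 and Rplp1 over the periodontitis libraries was therefore small beside that of Rplp0. Rps27a on chromosome 14 had 1342, 1205 and 1665 FPKM in periodontitis, whereas its further row on chromosome 5 had 295, 223 and 251 FPKM in controls and 204, 268 and 99.2 FPKM in periodontitis. Fau, which encodes a small subunit protein fused to a ubiquitin-like protein and lies outside the name rule, had 46.0, 48.0 and 56.0 FPKM in controls and 46.0, 36.7 and 48.5 FPKM in periodontitis. Its highest value was in control 3 and its lowest in periodontitis 2, unlike most members. Rps19bp1, which matches the name rule but encodes a regulator that binds Rps19 and is not a part of the ribosome, had 16.6, 16.8 and 18.7 FPKM in controls and 18.4, 16.8 and 17.1 FPKM in periodontitis.

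Paralog shares were computed for 7 pairs, as the percent of the pair's FPKM held by the paralog. The groups overlapped for each of the 7. Rpl3l held 8.45%, 11.9% and 6.62% of the pair with Rpl3 in controls and 1.97%, 6.64% and 7.02% in periodontitis. Rpl22l1, a paralog of the RNA-binding protein Rpl22, held 27.0%, 25.5% and 27.7% in controls and 26.5%, 25.5% and 24.2% in periodontitis. That share stayed between 24.2% and 27.7% in all 6 libraries: Rpl22 had 516 to 592 FPKM in controls and 659, 578 and 493 FPKM in periodontitis, and Rpl22l1 had 191 to 220 FPKM in controls and 237, 198 and 158 FPKM in periodontitis. Rpl36al, an autosomal copy of the X-linked Rpl36a, held 45.7%, 45.6% and 54.9% in controls and 44.3%, 46.9% and 63.7% in periodontitis. Rps27l, a paralog of Rps27 known as a p53 target, held 13.1%, 12.5% and 17.0% in controls and 11.4%, 12.0% and 21.2% in periodontitis. The third library had the highest share in each group for both of these pairs. Rps27 itself had 704, 795 and 533 FPKM in controls and 828, 740 and 389 FPKM in periodontitis, a far wider range than that of Rps27l. Rpl36a had 335, 416 and 340 FPKM in controls and 445, 357 and 238 FPKM in periodontitis, whereas Rpl36al had 282, 348 and 413 FPKM and 353, 315 and 418 FPKM. Periodontitis 3 was thus the lowest library for Rps27 and Rpl36a and the highest for Rpl36al. The nucleolar protein gene Rpl7l1 held 17.8%, 17.7% and 16.6% beside Rpl7 in controls and 19.4%, 19.3% and 14.6% in periodontitis. Rpl7l1 had 37.9, 41.9 and 38.1 FPKM in controls and 51.4, 46.2 and 28.8 FPKM in periodontitis, and Rpl7 had 176, 195 and 191 FPKM and 213, 193 and 168 FPKM. Both were highest in periodontitis 1 and lowest in periodontitis 3. Rpl39 on chromosome X (123705235 to 123708211) had 104, 70.3 and 61.9 FPKM in controls and 121, 92.9 and 43.2 FPKM in periodontitis. Rpl39l held 1.07% to 9.54% and Rpl10l at most 0.600% of their pairs in any library.

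Among the core rows, the third library of each group differed from the other two in a similar way. Periodontitis 3 was above periodontitis 1 in 8 of the 75 core rows: Rpl18, Rpl37a, Rpl41, Rplp2, Rps14, Rps27a, Rps28 and Rps29 (named after their values were seen). In all 8 control 3 was also the highest control, as it was in 12 of the other 67 core rows, while it was the lowest control in 38 of those 67. Rps29 had 1165, 1047 and 1541 FPKM in periodontitis, and Rpl41 had 1777, 1573 and 2250 FPKM, with the third library the highest of its group for both genes, as in the controls. Rpl27, of the large subunit and chosen after its values were seen, showed the reverse, with 553, 599 and 391 FPKM in controls and 671, 545 and 250 FPKM in periodontitis. Over the 75 core rows, the log2 difference of control 3 from controls 1 and 2 had a correlation of 0.86 with that of periodontitis 3 from periodontitis 1 and 2, compared with 0.51 over all 109 tested members and 0.46 over all 13154 tested genes. Over all members the value was thus near that of all genes. Other library pairs were also correlated over the core rows, taken as deviations from the group mean. Controls 1 and 2 had 0.58 to 0.64 with periodontitis 1 and 2, and -0.71 and -0.72 with periodontitis 3. The deviations within a group sum to 0, so these values are not independent of that of the third libraries. These are descriptions across genes, which share libraries and are not independent replicates. Control 3 and periodontitis 3 had the highest gland share of their groups. The part of the gland share in this split was not tested. Without the 4 gland genes in the scaling, the core rows still ranged from -1.22 to 0.85 in the log2 difference of periodontitis 3 from periodontitis 1, with 21 above and 54 below 0.

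**Figure D4:**
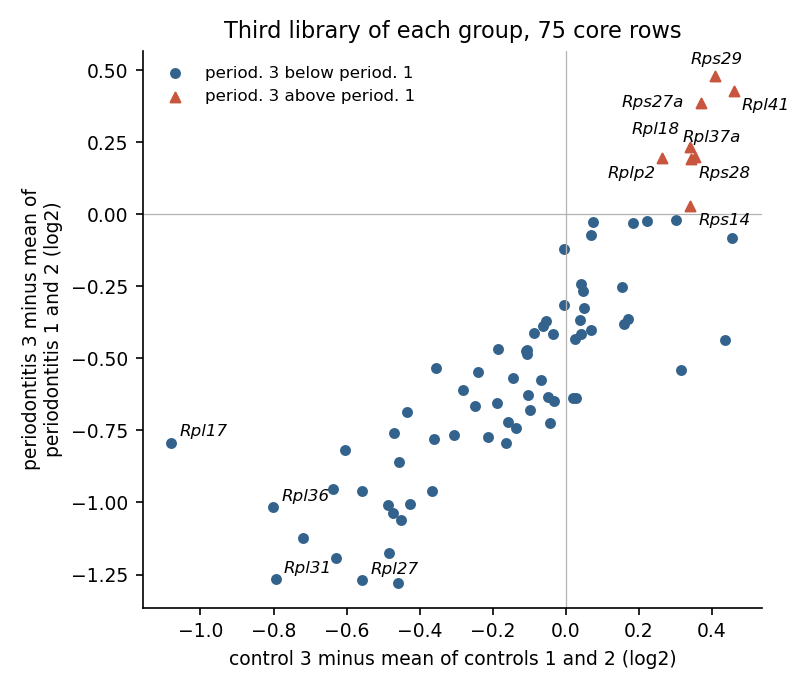
Each mark is a core ribosomal protein row. The x axis is log2(FPKM + 1) in control 3 minus the mean of controls 1 and 2, and the y axis the same for periodontitis 3 against periodontitis 1 and 2. Triangles are the 8 rows with periodontitis 3 above periodontitis 1, all at the upper right. The correlation over the 75 rows is 0.86.

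With each library centred on the median of the tested members, which asks whether a member departed from the rest of the family, 0 of 109 members passed (limma, Benjamini-Hochberg adjusted p of 0.05), as did 0% of all genes. At an unadjusted p under 0.05 there was 1 member (Rps4y2, by its centred log2 fold change of -0.96), compared with 99 of all genes. Levels were also set beside the TOP start at the annotated base. The 22 core members with a match there had a median log2 fold change of -0.01. Their median difference of periodontitis 3 from periodontitis 1 was -0.71, and the 31 without a match there had -0.02 and -0.63. This is a comparison of medians with no test. The 31 can include genes whose TOP start lies some bases away. Core names had a match at 23 of 61 starts, and at 38 of 61 within 5 bases. A list of other mRNAs of the TOP class matched at 0 of 16 starts, and at 6 within 5 bases.

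The other genes of translation were taken as 9 lists, with 213 tested rows outside the members, none of which passed the limma threshold. Elongation and termination factors (10 rows) had a median log2 fold change of 0.10, with 9 higher and 1 lower in the mean, and initiation factors (28 rows) had 0.04, with 21 higher and 7 lower. On the deposited scale both followed the family across libraries. Their list medians were 0.36 and 0.31 in periodontitis 1 and -0.30 and -0.28 in periodontitis 3. All tested genes had -0.04 and -0.15 in these 2 libraries. The list medians by library given below are also on the deposited scale. Eef1a2, the elongation factor of muscle and neurons, was the 1 row lower in the mean: it had 30.1, 47.3 and 26.4 FPKM in controls and 3.96, 20.7 and 17.1 FPKM in periodontitis, without overlap (log2 fold change -1.47 ± 0.54, SE, limma, adjusted p = 1.0). Like Rpl3l it was lowest in periodontitis 1. Eif3a, the scaffold of an initiation complex, had 78.9 to 91.4 FPKM in controls and 99.4 to 102 FPKM in periodontitis, also without overlap. Eef1d (0.14) and Eif1 (-0.27) had overlapping groups.

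Genes of the nucleolus, where ribosomes are assembled, had a higher mean in 38 of 39 tested rows, with a median log2 fold change of 0.18. The exception was Imp4. Of the 39 rows, 6 were higher without overlap (Rrp1, Bms1, Rrs1, Imp3, Ncl and Nop2, of which only Ncl and Nop2 were named by rule), beside 1.97% of all genes, and 0 had an unadjusted p under 0.05. Ncl, nucleolin, had 202, 203 and 191 FPKM in controls and 305, 248 and 211 FPKM in periodontitis. Nop2, which methylates ribosomal RNA, had 15.3, 16.8 and 14.0 FPKM in controls and 21.9, 18.7 and 17.2 FPKM in periodontitis. On the deposited scale the nucleolar list stood at 0.47, 0.14 and -0.09 in periodontitis 1 to 3, with the third library below the control mean. All tested genes had -0.04, 0.10 and -0.15 there, so the list lay above them in each of these libraries. Leaving out periodontitis 1 lowered the log2 fold change, as a median over the list, to 0.03, beside -0.03 for all tested genes. Rescaling without the 4 gland genes gave 0.21 for the list, beside -0.00027 for all tested genes. Its values by library were not computed on that scale.

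Mitochondrial ribosomal proteins (74 rows), which serve the separate ribosomes of mitochondria, had a median of -0.06, with 28 higher and 46 lower. On the deposited scale their list medians ran from -0.21 in periodontitis 3 to 0.13 in control 2, with 0.10 in periodontitis 1. Mrps10 (0.59) and Mrps6 (-0.31) had the smallest p in this list. RNA polymerase I and 5S genes had a median of 0.09, with Polr1e at 0.31 and Polr2k at -0.30. Other TOP mRNAs had 0.02, with the mesenchymal filament gene Vim at -0.57, and partners and chaperones had 0.03, with Heatr3 at 0.24. Rack1, a scaffold protein on the small subunit, had 267, 259 and 220 FPKM in controls and 331, 276 and 184 FPKM in periodontitis in its row on chromosome 10. Regulators such as the mTOR pathway had a median of -0.02, and did not follow the family, with -0.12 in periodontitis 1 and -0.04 in periodontitis 3. Rps6kb2, a kinase that phosphorylates Rps6, had 21.96, 22.1 and 17.5 FPKM in controls and 34.5, 22.7 and 27.5 FPKM in periodontitis, without overlap. Maf1, a repressor of RNA polymerase III, had -0.22. The p53 target list had 0.00, with Btg2, which is also an early response gene, at 0.96 and Ccng1 at -0.29.

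On the deposited scale the cornified, basal and proliferation marker lists stood highest in periodontitis 1 and lowest in periodontitis 3, as the family did. The cornified list had medians of 1.14, 0.36 and -1.14 in periodontitis 1 to 3, the proliferation list 0.50, 0.25 and -0.80, and the basal list 0.38, -0.02 and -0.49. Summed proliferation markers had 187 to 218 FPKM in controls and 296, 241 and 128 FPKM in periodontitis, and none of their 16 rows was listed at 0. The taste cell list did not follow the family, at -0.23, 0.12 and -0.22, and the von Ebner gland list ran the opposite way, at -0.83, -0.24 and 0.62. Muscle, fibroblast and immune lists were lowest in periodontitis 1 (medians of -2.06, -1.14 and -0.94), and the 3 red blood cell rows highest in periodontitis 3 (1.76). The part of these cell types in the ribosomal values was not tested.

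**Figure D5:**
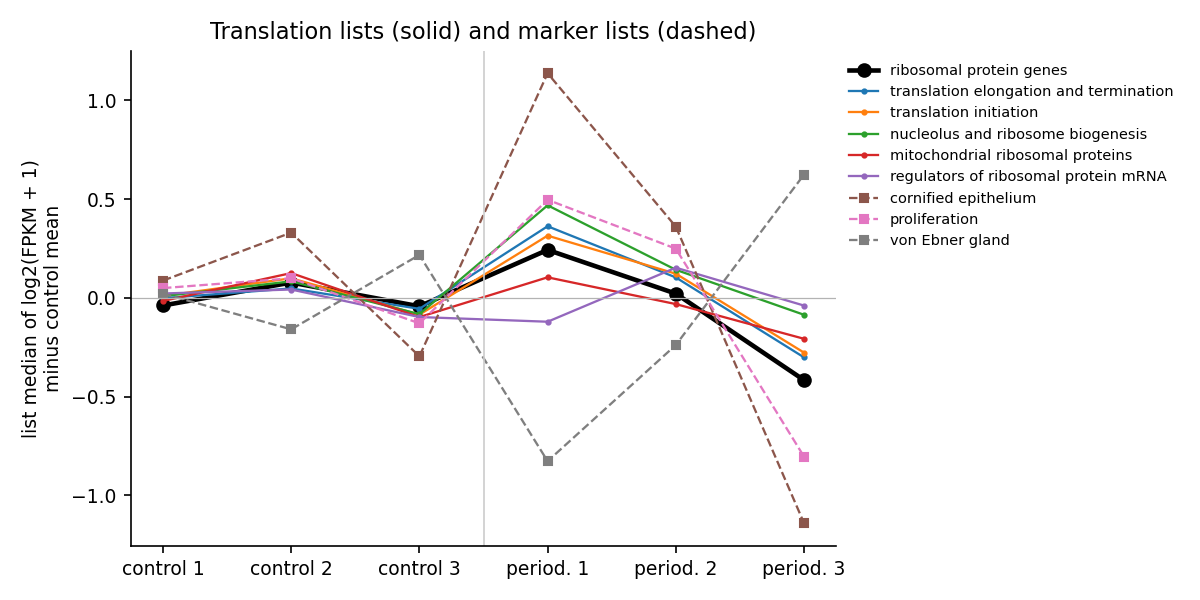
Lines join the median log2(FPKM + 1) minus the control mean of each list over the 6 libraries, which have no order within a group. All values are on the deposited FPKM scale. The black line is the ribosomal protein genes, solid lines other translation lists and dashed lines marker lists. Elongation and initiation factors lie close to the black line, while the gland list runs the opposite way, from -0.83 in periodontitis 1 to 0.62 in periodontitis 3.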

How the data were processed

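The authors deposited FPKM, 1 value per gene and library, per the file headers. Per the submitters' processing notes, FastQC, cutadapt, HISAT2 and StringTie were used, without versions or settings. A mouse build (mm10) is listed there, but gene identifiers and chromosomes are those of rat: positions are printed as deposited, on an unnamed rat build, and start windows on GRCr8 (RefSeq). Sequencing depth is unknown, and too few low values were listed to recover reads. Groups follow the disease label. From the authors' values, log2(FPKM + 1) was computed, and 13154 of 14405 genes reaching 1 FPKM in 3 or more libraries were kept. Limma 3.58.1 (R 4.3.3), with a mean-variance trend and group as its only term, gave 2-sided p-values, adjusted by Benjamini and Hochberg's method across every tested gene. The script was tested on simulated data. Members and lists were chosen with earlier results of these data known. Named were the 5 higher and 5 lower members of smallest p, the 5 highest and 5 lowest in controls, the stalk genes, Rpsa, Rps27a, paralog pairs, Rps19bp1, and 2 genes of smallest p per translation list with Fau and Rack1; 1 further gene is not reported here. Alternatives covered pairing, left-out libraries, filters, scaling, trend, pseudocount and threshold.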

Additional observations from a re-analysis of the deposited data

How the results depend on the processing

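The count of members past the threshold was 0 under each alternative: the replicate block, each library left out, 2 other filters, quantile normalization, 3 other scalings, no mean-variance trend, a pseudocount of 0.1 and an adjusted p of 0.1. Over all genes the count went from 0 to 3 with the replicate block, to 1 with equal FPKM sums and to 1 at an adjusted p of 0.1, and it was 0 to 1 with single libraries left out (1 without control 1). The cause was not tested. The labels do not say whether libraries of equal replicate number were handled together. Their deviations correlated at 0.09, 0.03 and 0.46 over all genes, for numbers 1 to 3. The replicate block changed no member's call (smallest adjusted p 0.683, limma). The members' median log2 fold change ran from -0.19 without periodontitis 1 to 0.14 without periodontitis 3, and from -0.04 to -0.0037 under the alternatives that kept all 6 libraries. The difference in ribosomal share ran from -0.54 percentage points without periodontitis 1 to 1.16 without periodontitis 3. Of 803 refits of 54 named genes, 0 passed the threshold and 56 had another sign. In all 6 fits without a library, 23 of 109 members had the same sign. No depth was available to bound the precision of low members such as Rps4y2 and Rpl10l.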

Other observations

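Some further rows and copies had a value in 1 library far from the rest. Rack1 is also listed on chromosome 12, in a row of 523 FPKM in control 3 and 2.49 to 12.1 FPKM in the other 5 libraries, whereas its row on chromosome 10 had 220 FPKM in control 3. Rpl31l4, also on chromosome 12, had 166 FPKM in control 3 and 14.47 to 36.6 FPKM elsewhere. A further row of Rpl13a on chromosome 1, which overlaps the main row, had 14.0 FPKM in control 1 and 0.185 to 5.89 FPKM in the other libraries. These rows were chosen after their values were seen.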
